A study of Homo sapiens with 6 samples.

Results

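The 9 genes described here encode a linked set of transcription regulators: the cap'n'collar (CNC) activators NFE2L1, NFE2L2 (better known as NRF2) and NFE2L3, the related repressors BACH1 and BACH2, the small MAF partners MAFF, MAFG and MAFK, and KEAP1, the protein that holds NRF2 in check. They were chosen by name, with earlier results of these data known, and all 9 were found among the 58735 genes of the expression table. Polyadenylated RNA came from the human melanoma line A375, an established line whose BRAF gene is mutant. There were 2 groups of 3 libraries each, both harvested after 6 h: cells given the solvent DMSO, and cells given CuB, named in the series title as cucurbitacin B, a plant triterpenoid. The dose of CuB is 0.2 µM in the protocol and 100 nM in the library names, so it is uncertain. All libraries share the single cell line. Nothing in the labels says that the 3 libraries of a group were separate cultures, and the spread behind each p-value is that between these libraries and may be technical.

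CNC proteins cannot bind DNA alone. They pair through a basic leucine zipper with a small MAF protein and then recognise antioxidant response elements near genes of glutathione, thioredoxin, NADPH and iron metabolism. The small MAF proteins carry no activation domain of their own, so a pair of small MAF proteins, or a small MAF with BACH1, can occupy the same elements and repress. NRF2 is kept scarce in unstressed cells because KEAP1 presents it to a CUL3 ubiquitin ligase, and electrophiles or oxidants that modify KEAP1 let NRF2 accumulate. That control acts on protein, as does the heme-driven loss of BACH1, and mRNA levels do not show it.

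Levels are given in FPKM, that is, fragments scaled to gene length and library size, as the authors deposited them. The values stood for between 14845976 and 15797757 fragments in the DMSO libraries and between 15502971 and 16137093 in the CuB libraries. The deposited scaling was not to these totals, since the library size it implied was 1.03 to 1.04 times the total for DMSO and 0.914 to 0.926 times for CuB. SOX10, a melanocyte lineage factor, was at 162.4 to 255.5 FPKM over the 6 libraries, while the pigment genes PMEL, MLANA, TYR, DCT and TYRP1 each had a mean under 1 FPKM. Of the 12 melanoma and melanocyte markers, 7 reached a mean of 1 FPKM, and the sum over all 12 was 909.6 to 1055 FPKM with DMSO and 897.8 to 943.8 FPKM with CuB. Among them S100B fell from 26.4 ± 1.61 to 6.64 ± 0.161 FPKM, S100A1 and SERPINE2 fell to 0.398 and 0.710 times the DMSO mean, and AXL rose 2.79-fold. The 6 keratinocyte and epithelial markers summed to 16.1 to 22.1 FPKM in the DMSO libraries and 25.9 to 28.5 FPKM in the CuB libraries, and KRT14 and KRT10 rose while KRT1 was at 0. The 6 immune markers summed to 1.79 to 2.11 and 0.552 to 1.39 FPKM. Among them LYZ, which reached the filter only through its DMSO values, fell. The part of these markers in the members' values was not tested. Of 6 fibroblast, 5 endothelial and 5 erythroid markers, 0 reached a mean of 1 FPKM. In bulk RNA, fewer cells of a kind and less RNA per cell cannot be told apart.

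After 6 h with CuB, mRNA was higher for 6 of the 8 members that could be tested: MAFF, MAFK, BACH1, NFE2L2, NFE2L1 and MAFG, in order of log2 fold change. None of the 8 was called lower, against 15.6% of all tested genes. KEAP1 and NFE2L3 did not pass the test. BACH2 had a mean under 1 FPKM and was not tested. The rises ran from 1.65-fold for NFE2L1 to 4.93-fold for MAFF. A gene was called when its adjusted p (limma's moderated test on log2(FPKM + 1), Benjamini-Hochberg over all tested genes) was under 0.05. By that rule 38.6% of all 13273 tested genes were called, and 22.9% were called as higher with CuB. Higher genes made up 59.5% of the calls, but 39.3% when the libraries were scaled to equal fragment totals, which shifted the median of all genes by -0.139 (log2); the same 6 members were called either way. In the 6 called members the lowest CuB value exceeded the highest DMSO value, a separation found for 29.8% of tested genes. The response to CuB was thus broad, and the members' count stands beside a high background. Rises at least as large as those of MAFF and MAFK were less common, since 0.995% of tested genes were called with a log2 fold change of at least 2, against 2 of the 8 members. At a log2 fold change of at least 1 the shares were 4.87% of tested genes and 4 of the 8 members. These cut-offs lie just under the values of MAFF, MAFK and NFE2L2, so the members' counts depend on the setting. With equal fragment totals these genes were at 1.92, 1.88 and 0.88, below the cut-offs. With 0.1 in place of 1 added to the FPKM they were at 2.30, 2.20 and 1.07, above them. The members were chosen with earlier results known, so these shares are descriptions and no test of the list.

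**Figure D1:**
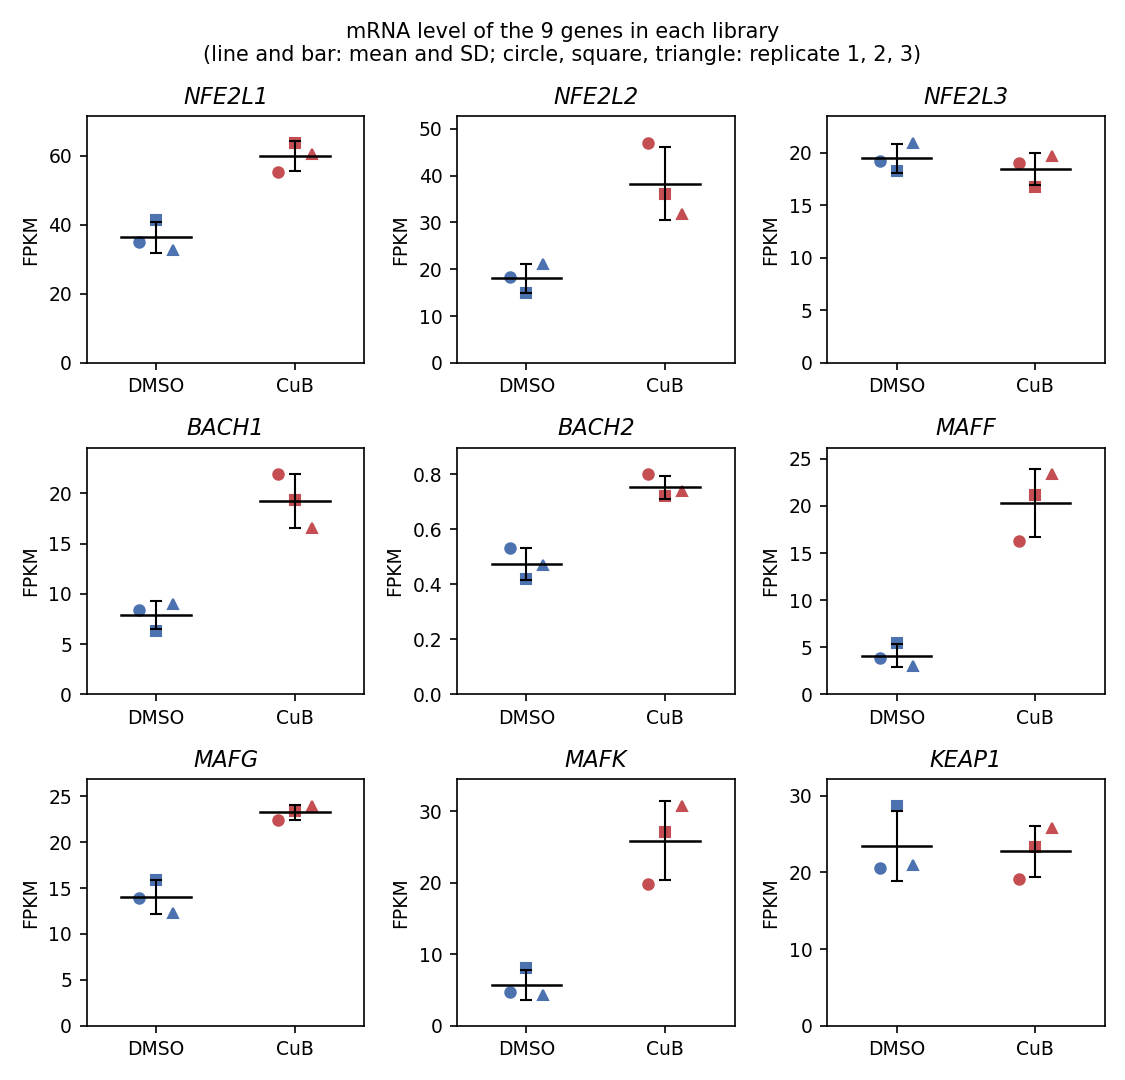
FPKM of each of the 9 genes (one panel per gene, each with its own vertical axis starting at 0) in the 3 DMSO libraries (blue) and 3 CuB libraries (red). Symbols mark the replicate number, and the line and bar give the mean and SD of the group. CuB points lie above all DMSO points in 7 panels, including the weakly expressed BACH2, and the groups overlap for NFE2L3 and KEAP1.

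NFE2L2 encodes NRF2, the main inducible activator of the set. It stood at 18.3, 14.9 and 21.1 FPKM in DMSO replicates 1 to 3 and at 47.0, 36.0 and 31.8 FPKM in CuB replicates 1 to 3. Every CuB library was above every DMSO library, and CuB replicate 1 was the highest. The group means were 18.1 ± 3.10 and 38.3 ± 7.84 FPKM (mean ± SD of 3 libraries, as in later values), 2.12-fold, with a log2 fold change of 1.04 (SE 0.174, limma adjusted p = 0.00388). Only 4.58% of tested genes had a larger log2 fold change. NFE2L2 (ENSG00000116044) lies on chromosome 2 from 177227595 to 177392697 of GRCh38, on the minus strand, and 20.9% of its exonic bases are shared with exons of other annotated genes. The largest share of that belongs to AC019080.1 on the same strand, which had 64 fragments over the DMSO libraries and 25 over the CuB libraries, against 5100 and 10032 for NFE2L2. AGPS, a gene of ether lipid synthesis on the other strand, starts 53 bases from the NFE2L2 start and shares 54 exonic bases. AGPS averaged 15.3 ± 1.36 FPKM in the DMSO group against 15.4 ± 1.22 FPKM in the CuB group, with overlap (limma adjusted p = 0.93).

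NFE2L1, also called NRF1, is made as a membrane protein of the endoplasmic reticulum and drives proteasome subunit genes when proteasome capacity falls short. Its mRNA was at 35.1, 41.4 and 32.8 FPKM with DMSO and at 55.3, 63.8 and 60.6 FPKM with CuB. The lowest CuB library was well above the highest DMSO library. The means were 36.4 ± 4.49 and 59.9 ± 4.29 FPKM, 1.65-fold, and the log2 fold change was 0.71 (SE 0.108, limma adjusted p = 0.00263). NFE2L1 (ENSG00000082641) lies on chromosome 17 from 48048329 to 48061487.

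NFE2L3, a less studied CNC factor of the same structure, gave another picture. It was at 19.3, 18.2 and 21.0 FPKM with DMSO and at 19.0, 16.7 and 19.7 FPKM with CuB, so the groups overlapped. The log2 fold change was -0.07 (95% interval -0.30 to 0.15, limma adjusted p = 0.57), which leaves room for a change of either sign smaller than those of its relatives. The gene (ENSG00000050344) lies on chromosome 7 from 26152240 to 26187125. Its annotated span overlaps HNRNPA2B1 on the opposite strand without sharing exonic bases.

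The makeup of the CNC mRNA pool shifted. The summed level of the NFE2L genes was 72.6, 74.6 and 74.8 FPKM with DMSO and 121.3, 116.6 and 112.2 FPKM with CuB. NFE2L2 made up 25.2%, 20.0% and 28.2% of it in the DMSO libraries and 38.8%, 30.9% and 28.4% in the CuB libraries. These ranges did not overlap, though the gap between DMSO replicate 3 and CuB replicate 3 was small. The NFE2L3 share went from 26.3% ± 1.79 to 15.9% ± 1.61, and the NFE2L1 share overlapped between groups at 49.2% ± 5.95 and 51.5% ± 5.10. These shares are descriptions and were not tested.

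BACH1 encodes the repressor that competes with NRF2 for small MAF partners and keeps HMOX1 silent until heme or oxidants remove it. BACH1 mRNA was at 8.39, 6.26 and 8.98 FPKM with DMSO and at 21.9, 19.3 and 16.5 FPKM with CuB. The lowest CuB value was 16.5 FPKM and the highest DMSO value 8.98 FPKM, so the groups were well apart. The means were 7.88 ± 1.43 and 19.3 ± 2.71 FPKM, 2.44-fold, with a log2 fold change of 1.19 (SE 0.153, limma adjusted p = 0.00128). The gene (ENSG00000156273) is annotated on chromosome 21 from 29194071 to 29630751, a span that holds other transcription units. Of these, LINC00189 on the same strand shares 302 exonic bases and was at 3.24 ± 0.671 and 4.35 ± 0.996 FPKM, with overlapping groups. The intronic transcript BACH1-IT1 was at 1.51 ± 0.603 and 1.71 ± 0.168 FPKM, also with overlap. Neither passed the test.

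BACH2, a repressor best known from lymphocytes, was detected in every library at a low level. It had 80, 67 and 72 fragments in the DMSO libraries and 111, 105 and 108 in the CuB libraries. That is 0.474 ± 0.0573 and 0.753 ± 0.0417 FPKM, a ratio of 1.59, and the groups did not overlap. Without the filter on low values BACH2 had a log2 fold change of 0.25 on the log2(FPKM + 1) scale and did not pass (limma adjusted p = 0.166). The 1 added on that scale shrinks differences between values under 1 FPKM. BACH2 (ENSG00000112182) lies on chromosome 6 from 89926529 to 90296908.

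NFE2L2 and BACH1 mRNA rose by similar factors, so their ratio moved little. The ratio of their FPKM values was 2.18, 2.38 and 2.35 with DMSO and 2.15, 1.86 and 1.93 with CuB. The CuB values lay just under the DMSO values, with the closest pair at 2.18 and 2.15.

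The small MAF genes all rose, but by unequal amounts. MAFF was at 3.82, 5.47 and 3.05 FPKM with DMSO and at 16.3, 21.1 and 23.4 FPKM with CuB. The groups were far apart. The MAFF means were 4.11 ± 1.24 and 20.3 ± 3.60 FPKM, 4.93-fold (log2 fold change 2.07, SE 0.199, limma adjusted p = 0.000375). MAFF ranked 124 among the 13273 tested genes by log2 fold change. MAFK was at 4.68, 8.08 and 4.28 FPKM with DMSO and at 19.8, 27.1 and 30.8 FPKM with CuB, with DMSO replicate 2 the highest of its group and CuB replicate 1 the lowest of its own. The MAFK means were 5.68 ± 2.09 and 25.9 ± 5.58 FPKM, 4.56-fold (log2 fold change 2.03, SE 0.241, limma adjusted p = 0.000933), which ranked it 126. MAFG, the small MAF with the highest level in the control cells, was at 13.9, 15.9 and 12.3 FPKM with DMSO and at 22.4, 23.4 and 24.0 FPKM with CuB. The groups did not overlap, and the CuB values lay close together. The MAFG means were 14.0 ± 1.82 and 23.3 ± 0.808 FPKM, 1.66-fold (log2 fold change 0.70, SE 0.104, limma adjusted p = 0.00247).

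The unequal rises changed the makeup of the small MAF transcripts. MAFG made up 62.1%, 54.0% and 62.6% of the summed small MAF FPKM in the DMSO libraries and 38.2%, 32.7% and 30.7% in the CuB libraries. MAFF went from 17.0% ± 1.52 to 29.1% ± 1.07 and MAFK from 23.4% ± 3.54 to 37.0% ± 2.85. None of these shares overlapped between groups, and none was tested. With CuB, MAFK was above MAFG in replicates 2 and 3 but below it in replicate 1. The order of these 2 genes thus did not hold in every library with the deposited lengths. The shares and this order depend on the gene length used. Per length of the longest transcript, MAFF and MAFK would average 34.7 and 34.3 FPKM with CuB, above MAFG at 24.1 FPKM. With DMSO, MAFG would stay the highest, at 14.5 FPKM against 7.03 for MAFF and 7.52 for MAFK. The summed level of the small MAF genes went from 22.4, 29.5 and 19.6 FPKM to 58.5, 71.6 and 78.2 FPKM, 2.91-fold, while the summed CNC level rose 1.58-fold.

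**Figure D2:**
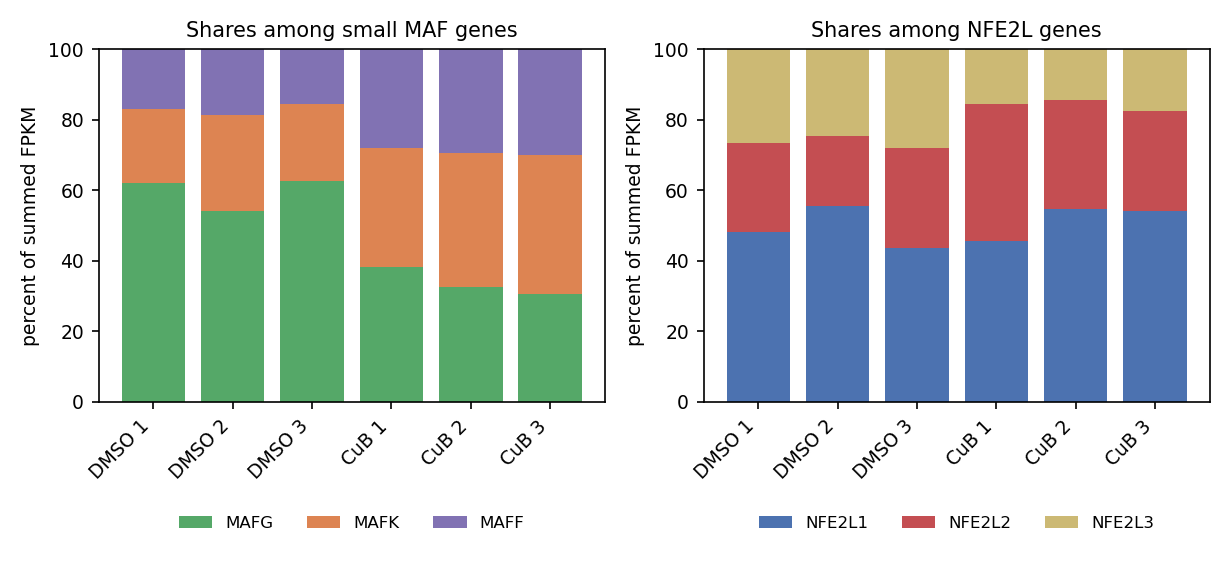
Stacked bars give, for each of the 6 libraries, the percent of the summed FPKM from each small MAF gene (left) and each NFE2L gene (right); every bar adds to 100. The MAFG share falls from 59.6% on average with DMSO to 33.9% with CuB, and the NFE2L3 share from 26.3% to 15.9%.

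MAFF (ENSG00000185022) lies on chromosome 22 from 38200767 to 38216511, MAFG (ENSG00000197063) on chromosome 17 from 81918270 to 81927714 and MAFK (ENSG00000198517) on chromosome 7 from 1530714 to 1543043. MAFF shares no exonic bases with other genes. The MAFK exons share 809 bases, 18.2% of their length, with TMEM184A on the opposite strand. That gene had only 8, 23 and 14 fragments with DMSO, against 320, 590 and 298 for MAFK, and 28, 29 and 40 with CuB, against 1253, 1795 and 2054. How the counting treated strand is not given, so reads of the 2 genes in the shared bases may not have been told apart. MAFG-DT, a transcript that starts 115 bases from the MAFG start and runs the other way, did not follow MAFG. It was at 3.68, 5.25 and 2.98 FPKM with DMSO and at 2.16, 2.24 and 3.21 FPKM with CuB. It did not pass (log2 fold change -0.48, limma adjusted p = 0.0917). SIRT7, a deacetylase gene that overlaps MAFG on the same strand by 105 exonic bases, rose from 3.94 ± 0.639 to 5.96 ± 0.165 FPKM (limma adjusted p = 0.0113). Over all 9 members, 26 overlapping or adjacent genes had a mean of at least 0.1 FPKM and 10 were tested. SIRT7 was the only call among these 10, while 38.6% of all tested genes were called. BACH1-AS1, antisense to BACH1, was under the filter at 3, 4 and 4 fragments with DMSO and 7, 6 and 8 with CuB.

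MAFF had the largest change of the set, and the tested genes whose pattern over the 6 libraries was closest to it were MAFK, PDLIM7 and KRT80. Their Euclidean distances in centred log2(FPKM + 1) were 0.204, 0.235 and 0.254. With 2 groups, such distances depend largely on the size of the rise. By log2 fold change these genes ranked 126, 131 and 129, beside MAFF at 124. PDLIM7, which encodes an actin-associated LIM protein, went from 12.2 ± 3.18 to 51.0 ± 4.13 FPKM. KRT80, a keratin gene, went from 5.19 ± 0.889 to 23.8 ± 2.61 FPKM.

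KEAP1, the substrate adaptor that recognises NRF2, did not pass the test. It was at 20.6, 28.7 and 21.0 FPKM with DMSO and at 19.1, 23.3 and 25.8 FPKM with CuB. The groups overlapped, and DMSO replicate 2 was the highest of the 6 libraries. The log2 fold change was -0.04 (95% interval -0.41 to 0.34, limma adjusted p = 0.876), and its sign turned when DMSO replicate 2 or CuB replicate 1 was left out, at 0.11 and 0.08. The ratio of NFE2L2 to KEAP1 FPKM was 0.886, 0.518 and 1.00 with DMSO and 2.46, 1.54 and 1.24 with CuB, without overlap. KEAP1 (ENSG00000079999) lies on chromosome 19 from 10486120 to 10503741 and shares no exonic bases with other genes.

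**Figure D3:**
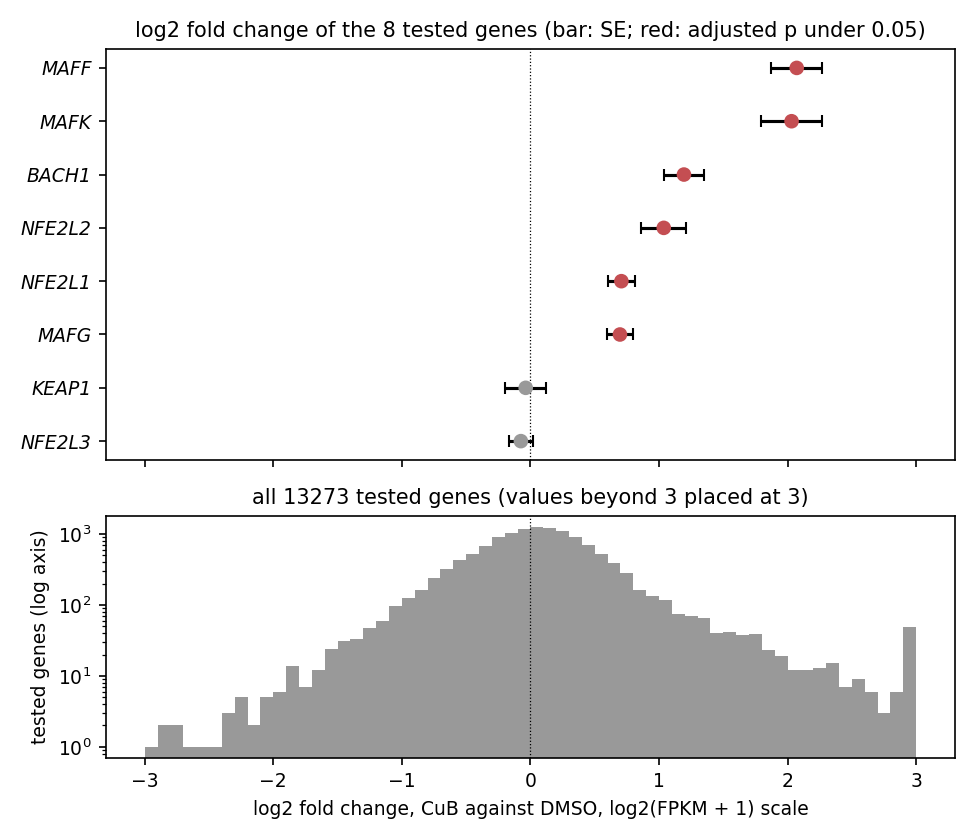
Upper panel: log2 fold change of the 8 tested members (points, with SE bars) on the log2(FPKM + 1) scale, red where the adjusted p was under 0.05. Lower panel: the same quantity for all 13273 tested genes, with a log vertical axis and values beyond 3 placed at 3. MAFF and MAFK sit at 2.07 and 2.03, in the right tail, and KEAP1 and NFE2L3 sit near 0.

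Within each group the members split by base composition. The 5 members whose longest transcript has a GC content of 55.2% to 63.4% (NFE2L1, MAFG, KEAP1, MAFF and MAFK) were all highest in replicate 2 among the DMSO libraries and all lowest in replicate 1 among the CuB libraries. The 4 members at 38.6% to 47.2% (BACH1, NFE2L2, NFE2L3 and BACH2) were all lowest in DMSO replicate 2, and 3 of them were highest in CuB replicate 1. Across the 13265 tested genes with a known GC content, the deviation of a library from its group mean had a Spearman correlation with GC of 0.774 for DMSO replicate 2 and -0.667 for CuB replicate 1. The part of this in the members' spread was not tested, but with a correction for GC content the same 6 members were called and their log2 fold changes were 1.99 for MAFF, 1.96 for MAFK, 1.14 for BACH1, 1.00 for NFE2L2, 0.65 for NFE2L1 and 0.63 for MAFG.

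The order of levels between genes also changed. With DMSO the order was NFE2L1, KEAP1, NFE2L3, NFE2L2, MAFG, BACH1, MAFK, MAFF and BACH2. The ranges of KEAP1, NFE2L3, NFE2L2 and MAFG overlapped from each gene to the next, as did those of BACH1, MAFK and MAFF, whereas NFE2L1 and BACH2 stood apart. With CuB, NFE2L1 and NFE2L2 were clearly first and second, MAFK, MAFG, KEAP1, MAFF, BACH1 and NFE2L3 followed with each range overlapping the next, and BACH2 was last. The order depends on the gene length used. The table divides by the full set of annotated exonic bases, which for NFE2L2 is 5979 bases, 2.10 times its longest annotated transcript. Per length of the longest transcript, NFE2L2 would average 37.9 FPKM in DMSO cells and 80.2 FPKM in CuB cells, and would then stand above NFE2L1 with CuB, at 73.1 FPKM.

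Promoter sequence was compared with the response for a description only. RefSeq windows on GRCh38.p14, from 250 bases before to 50 bases after a transcript start, were held for 8 of the 9 members (all but MAFK), 14 windows in all. They were searched on both strands for 4 short motifs: TGACNNNGC, the core of the antioxidant response element, TGANTCA, the core bound by AP-1 and shared with MAF recognition elements, TGACGTCA, the cyclic AMP response element, and TGATGNAA, a core of composite ATF4 sites. Any base may stand at N, and TGACNNNGC and TGACGTCA share their first 4 letters. Sites are shown for BACH1, MAFF, KEAP1 and BACH2, the only members with a match. Of these, BACH1 and MAFF rose, KEAP1 did not pass and BACH2 was untested. Each line gives 30 bases, 5′ to 3′ on the strand of the gene, with the match in capitals.
BACH1, AP-1 core, chr21:29298863-29298892, plus strand: cgcggaaggagTGAGTCAcctgaccgctgc
MAFF, antioxidant core read on the other strand, chr22:38201862-38201891, plus strand: cttccaggggGCGGGGTCAtacgggggcgg
MAFF, cyclic AMP element, chr22:38201929-38201958, plus strand: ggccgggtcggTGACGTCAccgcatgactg
KEAP1, antioxidant core, chr19:10502806-10502835, minus strand: acttttattgTGACACGGCgggcgcccggc
BACH2, cyclic AMP element, chr6:90296907-90296936, minus strand: tggggagcgggTGACGTCAgcgccgaatgt

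The BACH1 match begins 48 bases before its transcript start, the MAFF matches 122 and 54 bases before, the KEAP1 match 54 bases before and the BACH2 match 82 bases before. KEAP1 has another antioxidant core, GCTTAGTCA, 31 bases before the same start. All of these but the BACH2 site also lie in an exon of at least 1 GENCODE 29 transcript of the gene. TGACNNNGC occurred in 2 of the 14 windows and in 13.4% of all 35116 windows, TGANTCA in 1 of the 14 and in 7.71%, and TGACGTCA in 2 of the 14 and in 1.85%. TGATGNAA occurred in 0 of the 14 windows and in 3.62% of all. No match was found in the windows of NFE2L1, NFE2L2, NFE2L3 and MAFG, which says only that these letters are not in those windows. A match is neither a bound site nor a cause of the change.

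Genes that these factors are known to regulate moved both ways. Of 36 listed targets of NRF2 and BACH1, 29 were tested, 8 rose and 4 fell. The rises numbered 6 with an equal FPKM sum, with equal fragment totals, or without DMSO replicate 1, DMSO replicate 3 or CuB replicate 3. They numbered 6 of 35 without the filter, and 10 without DMSO replicate 2. The share called was 41.4%, near the 38.6% of all tested genes, and the median log2 fold change was 0.0863 against 0.0548. This median turned negative with libraries set to an equal FPKM sum (-0.0155), with quantile normalization (-0.122) and with fragment totals made equal (-0.0770). HMOX1, the heme oxygenase repressed by BACH1, was at 1.33, 1.47 and 1.25 FPKM with DMSO and at 9.77, 9.67 and 10.5 FPKM with CuB, 7.39-fold. OSGIN1, an oxidative stress-induced growth inhibitor, was at 0.471, 0.388 and 0.259 FPKM and at 2.65, 3.59 and 3.73 FPKM. Both were apart in every library, but OSGIN1 reached the filter only through its CuB values.

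Others among the targets that rose belong to cystine and glutathione supply and to iron storage. SLC7A11, the cystine transporter subunit, was at 13.8, 10.4 and 14.2 FPKM with DMSO and at 45.8, 42.9 and 37.8 FPKM with CuB. FTH1, the ferritin heavy chain, was at 67.5, 86.8 and 65.1 FPKM and at 174.9, 170.6 and 181.4 FPKM. Ferritin genes have many processed copies, which the counting could have split off. The other 4 that rose, named after their values were seen, were GCLM, the modifier subunit of glutamate-cysteine ligase (6.55 ± 1.10 to 15.7 ± 2.32 FPKM), TXNRD1, thioredoxin reductase (46.4 ± 3.12 to 98.2 ± 7.85 FPKM), FTL, the ferritin light chain (431.0 ± 12.8 to 516.7 ± 38.4 FPKM), and SRXN1, sulfiredoxin (2.04 ± 0.892 to 4.34 ± 1.45 FPKM). The groups overlapped for SRXN1 (limma adjusted p = 0.0486).

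Several classic targets did not move with NFE2L2 mRNA. NQO1, a quinone reductase often used to read NRF2 activity, was at 132.3, 126.4 and 128.7 FPKM with DMSO and at 133.4, 117.4 and 122.3 FPKM with CuB (limma adjusted p = 0.582). GCLC, the catalytic partner of GCLM, was at 6.85 ± 0.868 and 7.55 ± 0.457 FPKM (limma adjusted p = 0.372). The pentose phosphate genes TALDO1 and TKT did not pass either. The 4 that fell were IDH1, a cytosolic NADPH source (from 21.1 to 11.3 ± 0.872 FPKM on average, 17.7 to 23.5 FPKM across the DMSO libraries), AKR1C2, an aldo-keto reductase (1.77 ± 0.175 to 0.893 ± 0.158 FPKM), ABCC2, an efflux pump (8.27 ± 0.543 to 6.49 ± 0.153 FPKM), and PGD, a pentose phosphate enzyme (59.4 ± 2.74 to 50.6 ± 0.409 FPKM). These genes too were named after their values were seen. AKR1C2 reached the filter only through its DMSO values. The AKR1C genes are close relatives, and their fragments may be split between them.

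Among 23 genes that govern the turnover of NRF2 and BACH1, 3 rose, 3 fell and 17 did not pass. The share called was 26.1%, against 38.6% of all tested genes, and the median log2 fold change was 0.0101, against 0.0548. SESN2, sestrin 2, a stress-induced protein that favours KEAP1 degradation, was at 5.62, 6.78 and 5.23 FPKM with DMSO and at 75.5, 87.7 and 86.3 FPKM with CuB, 14.2-fold. SQSTM1, the p62 autophagy receptor that captures KEAP1, was at 19.6, 25.2 and 18.8 FPKM and at 78.9, 88.6 and 89.8 FPKM, 4.05-fold. These 2 genes ranked 18 and 137 by log2 fold change. TRIM21, a ubiquitin ligase that acts on p62, rose to 4.43 ± 0.281 from 2.88 ± 0.440 FPKM. FBXL17, a ubiquitin ligase adaptor that recognises BACH1, fell from 5.20 ± 0.311 to 3.18 ± 0.140 FPKM, and AMER1, a KEAP1-binding protein, fell from 3.45 ± 0.214 to 2.16 ± 0.298 FPKM. GSK3B, the kinase that marks NRF2 for a KEAP1-independent ligase, was at 48.8, 43.0 and 47.3 FPKM with DMSO and fell to 36.0, 32.5 and 31.2 FPKM (limma adjusted p = 0.00641). TRIM21 and GSK3B were named after their values were seen. CUL3, the ligase scaffold used by KEAP1, was at 7.68 ± 0.932 and 5.90 ± 0.465 FPKM and just missed the threshold (limma adjusted p = 0.051). Without DMSO replicate 2, 6 of the 23 rose and 4 fell, and with the GC correction 6 rose and 5 fell. Under quantile normalization 3 rose and 5 fell, and at a minimum of 5 FPKM 2 of 20 rose and 1 fell.

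Of 10 genes that act in the release and processing of NFE2L1, 2 rose and 0 fell (20.0% called, median log2 fold change 0.222). Over all tested genes 38.6% were called, 22.9% as higher, with a median of 0.0548. DDI2, the protease that cuts NFE2L1, was at 8.39, 7.08 and 7.75 FPKM with DMSO and at 13.7, 12.8 and 12.3 FPKM with CuB (limma adjusted p = 0.00158). VCP, the extracting ATPase, was at 89.4 ± 2.07 and 109.1 ± 3.06 FPKM (limma adjusted p = 0.0128), and missed the threshold in 7 of the 20 alternatives, among them libraries set to an equal FPKM sum, under quantile normalization, with equal fragment totals, and without DMSO replicate 1, CuB replicate 2 or CuB replicate 3. Without DMSO replicate 2, 4 of the 10 rose.

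Of 33 proteasome genes, the best known targets of NFE2L1, 32 were tested, and 15 rose and 0 fell (46.9% called, median log2 fold change 0.255). The shares of all tested genes were 38.6% called and 22.9% called higher, with a median of 0.0548. ADRM1, a ubiquitin receptor of the proteasome named after its values were seen, had the largest log2 fold change of the list at 0.88, but its groups overlapped (45.8 ± 18.4 and 82.9 ± 19.1 FPKM, limma adjusted p = 0.0452). The rises without overlap were 1.54-fold or less. PSMD3 went from 33.2 ± 4.25 to 51.2 ± 3.96 FPKM, PSMD2 from 42.2 ± 2.01 to 61.3 ± 4.56 FPKM and PSMD1 from 27.1 ± 1.58 to 39.4 ± 1.02 FPKM, all subunits of the regulatory particle. PSMB6, a catalytic core subunit, went from 44.9 ± 8.33 to 64.2 ± 4.10 FPKM, and did not pass without the filter, under quantile normalization, with equal fragment totals, or when DMSO replicate 1, DMSO replicate 3, CuB replicate 2 or CuB replicate 3 was left out. The count of rises fell to 5 under quantile normalization and to 7 with equal fragment totals, and to 8 or 9 when any one of those 4 libraries was left out. Of all 13273 tested genes, 2241 were higher under quantile normalization and 2021 with equal fragment totals, against 3046 in the main fit. The count of rises was 19 without DMSO replicate 2, 18 with the GC correction and 17 of 31 at a minimum of 5 FPKM. The count of falls was 0 in every one of these settings.

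Other basic leucine zipper genes, several of which can pair with CNC or MAF proteins, included the 2 largest rises of all tested genes, JUN and ATF3. Of 18 listed genes 11 were tested, 10 rose and 0 fell (90.9% called, against 38.6% of all tested genes). The median log2 fold change was 2.46, and the counts were the same under all 4 rescalings. ATF3 and JDP2, with DMSO means of 0.645 and 0.392 FPKM, reached the filter only through the CuB group. Without the filter 10 of 17 rose, with a median of 1.52. JUN, an AP-1 subunit, was at 1.95, 3.35 and 1.81 FPKM with DMSO and at 289.3, 352.9 and 359.8 FPKM with CuB. ATF3 was at 0.758, 0.590 and 0.587 FPKM and at 76.1, 71.8 and 65.5 FPKM, and FOSB and FOS rose 20.9-fold and 13.5-fold. MAF, a large MAF factor with its own activation domain, was the exception at 3.43 ± 0.157 and 3.14 ± 0.396 FPKM (limma adjusted p = 0.47). NFE2, the founding CNC gene, known from blood cells, had a mean under 1 FPKM, at 0.976, 1.19 and 0.856 FPKM in the DMSO libraries and at 0.857, 0.436 and 0.433 FPKM in the CuB libraries, with overlap.

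**Figure D4:**
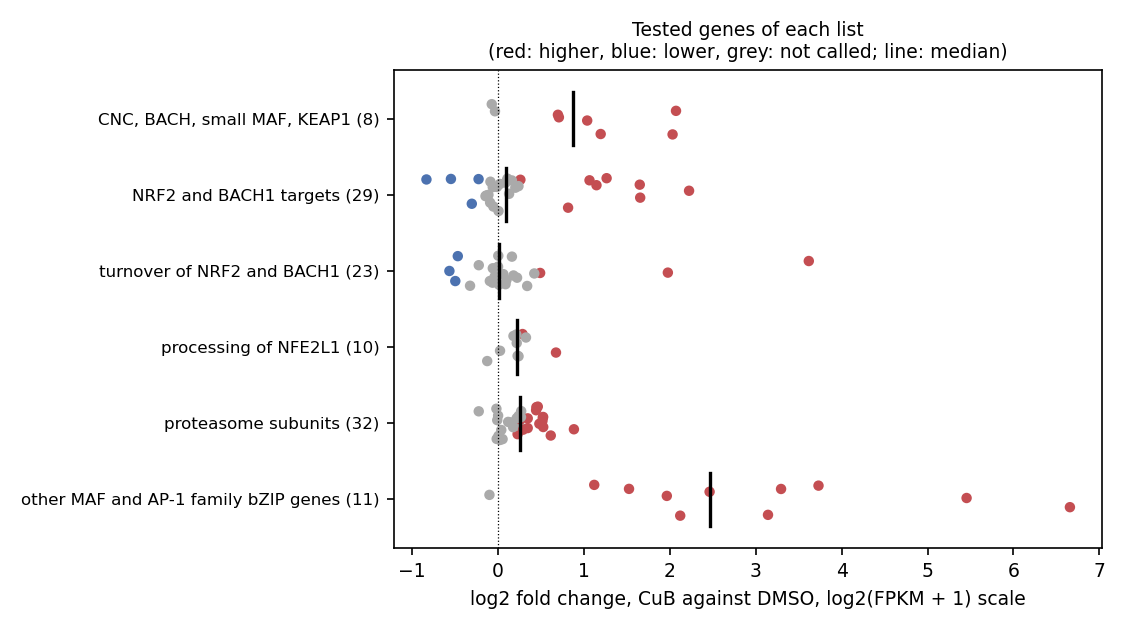
Log2 fold change of every tested gene of 6 lists, with the number tested in brackets; each point is a gene, red where called higher with CuB, blue where called lower, grey where not called, and the vertical line is the median of the list. The members have 6 red and 0 blue points, the NRF2 and BACH1 targets 8 red and 4 blue, and the other leucine zipper genes 10 red.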

How the data were processed

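Polyadenylated RNA was sequenced from 6 A375 libraries. The authors deposited FPKM values for 58735 genes with gene lengths. Per the submitters' processing notes, GRCh38 was the genome. For the aligner, counter and scaling, the step is not given in the sources used here. Per the labels' protocols, a TruSeq RNA kit was used. Gene identifiers and coordinates matched GENCODE 29 for all 58735 genes. Low values step by a fixed amount per gene length, so fragments could be recovered, with 100% of nonzero values whole to a tolerance of 0.01. The number of columns of sample values left unused was 0. Replicate pairs within a group had a chi-square per degree of freedom of 2.80 to 24.3, so no library was counted as a copy.

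Tests used limma 3.58.1 in R 4.3.3 on log2(FPKM + 1) for the 13273 genes averaging 1 FPKM or more, with an intensity trend, 4 residual degrees of freedom and no replicate block, adjusted over all tested genes. FPKM depends on the effective library size, so 4 rescalings were tried (same sum, median of ratios, quantile, equal fragment totals), along with pseudocounts of 0.1 and 0.5, no filter, a minimum of 5 FPKM, voom, no trend, robust fitting, the replicate block, a GC correction (lowess span 0.3) and each library left out. The deposited library sizes already followed the median of ratios, at 0.996 to 1.005 relative to it. That rescaling shifted the median of all genes by only -0.0014 (log2), so it could hardly differ from the main fit. Ratios between members were described only. The limma step was run on simulated data with a fixed spread for every gene and no GC differences between libraries. These data do have such differences, so the simulation does not give the error rate here. Plots used matplotlib 3.10.9 under Python 3.11.15.

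The members and the 5 other gene lists (119 genes, all found) were chosen with earlier results of these data known. Named list genes were the up to 4 largest called and separated changes, or the 2 highest means where fewer than 2 passed; neighbours started within 2000 bases or overlapped, at a mean of at least 0.1 FPKM; 3 nearest genes were named. Motifs were chosen after the data were seen. A protein sequence comparison was not made here.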

Additional observations from a re-analysis of the deposited data

How the results depend on the processing

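The 6 called members kept their direction and stayed under an adjusted p of 0.05 in limma under all 20 alternatives, with log2 fold changes from 1.92 to 2.33 for MAFF, 1.88 to 2.27 for MAFK, 1.04 to 1.30 for BACH1, 0.84 to 1.16 for NFE2L2, 0.47 to 0.80 for NFE2L1 and 0.53 to 0.78 for MAFG. NFE2L3 and KEAP1 passed under none (adjusted p from 0.0876 to 0.965 and from 0.0888 to 0.906). KEAP1 changed sign without single libraries, its range over leave-one-out fits being -0.13 to 0.11. The untested BACH2 difference of 0.25 became 0.58 with a pseudocount of 0.1, 0.36 with 0.5, 0.33 under quantile normalization and 0.19 with equal fragment totals. The NFE2L1 share of CNC FPKM differed by 2.24 percentage points, and by -0.48 to 5.41 with single libraries left out.

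Of all genes, 3046 were higher and 2072 lower. Equal fragment totals gave 2021 and 3128, a share of 39.3% higher in place of 59.5%, with the median of all genes shifted by -0.139; the share was 46.7% with the same sum and 47.1% under quantile normalization. The lower count was 985 at a minimum of 5 FPKM, 3592 with the GC correction and 3404 with the GC correction and the replicate block. Leaving out single libraries gave 1965 to 3443 higher and 1297 to 2312 lower, fewest without CuB replicate 2, and 1359 lower without DMSO replicate 1. The correlations of deviations between libraries of the same replicate number were 0.269, 0.119 and -0.357 for numbers 1 to 3. These deviations also follow GC content by library, so the correlations cannot settle whether the numbers pair the samples. With the replicate block 2647 genes were higher and 1796 lower, 6 members were called, and VCP was not (limma adjusted p = 0.0578). Of the NRF2 and BACH1 targets 7 fell under quantile normalization and with equal fragment totals, and 2 fell with the replicate block or without any library other than DMSO replicate 2. The cause of these shifts was not tested. With a library left out, 1 group has only 2 libraries. BACH2 is limited by its depth of 67 to 111 fragments per library.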
